A study of Lathyrus oleraceus subsp. biflorus and Lathyrus oleraceus and [Pisum sativum] subsp. abyssinicum with 117 samples.

Results

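Of 27737 pea loci outside the gene annotation, 471 had RNA in seeds of the Ethiopian pea PI358617 and almost none in seeds of the other 5 lines sequenced with it. These loci carry identifiers that begin with Ps_DOR2genes and are called PI358617-restricted loci below. The loci were chosen by their counts: a locus was taken when its mean level reached 0.5 CPM (counts per 1000000 counts of the library) over the 10 seed coat or the 10 embryo libraries of PI358617. It also had to hold at most 3 counts in the summed libraries of each other line. The whole table listed 59594 features, of which 31857 carried annotated identifiers.

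PI358617 is Pisum abyssinicum. The lines set against it were the wild peas JI64, JI261 and JI1794 (P. elatius), the landrace JI92 and the cultivar Cameor (both P. sativum). Seed coat and embryo were sampled separately at developmental stages D1 to D5, with 2 libraries for each tissue and stage of PI358617. The main set held 20 libraries of PI358617 and 86 of the other lines. Not every stage was covered in those: JI92 and JI1794 had no embryo library at D1, JI64 had none at embryo D5, and JI261 had none at embryo D1 or at D2 of either tissue. Near absence from a line therefore refers to the stages it was sampled at. A further 11 libraries, of JI64 and JI92 seed coat, carry the year 2017 and took no part in the choice of loci. All plants grew in a glasshouse without treatment, and the labels name no transgene or mutation. P. abyssinicum is represented by 1 accession, so line and species cannot be told apart. Nothing in the labels states that the paired libraries of a stage are separate plants. The p-values below therefore measure only how far these samples differ, and that spread may be technical.

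The seed coat is maternal tissue that encloses the embryo, and in wild peas its barrier to water is part of seed dormancy. The embryo is of the next generation and fills its cotyledons with storage protein and starch as it matures. Transcribed loci that an annotation lacks can be protein-coding genes, long non-coding RNAs, transposable elements or fragments of neighbouring genes. Reads of every line were mapped to the genome of Cameor, and no sequence, position or name is paired with these identifiers in the files, so no function is given here.

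Library totals were 57.32 M to 68.15 M counts in PI358617 and 56.97 M to 104.0 M in the other libraries (M, mega). The level of 0.5 CPM stood for 28.7 to 34.1 counts in a PI358617 library. Tissue identity was read from 2 lists of 100 annotated identifiers each, chosen in the other 5 lines at D3 and D4. The seed coat list took 8.03% to 15.4% of counts in PI358617 seed coat libraries and 0.00238% to 0.0306% in its embryo libraries. The embryo list took 0.057% to 3.59% of counts in seed coat libraries, 1.13% and 1.14% in the embryo libraries at D1, and 37.0% to 44.2% in embryo libraries from D2 to D5. Levels of the PI358617-restricted loci in replicate libraries were correlated at a Spearman rho of 0.882 to 0.934 over the 471 loci.

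The contrast between PI358617 and the other lines chose the loci, and its values are given as a description. Summed over the 471 loci, the PI358617 libraries held 1003574 counts, against 186 counts in the 86 libraries of the other lines. No count at all was seen in those 86 libraries for 404 of the loci. Among the 3503 loci outside the annotation that reached the level in PI358617, 13.4% were restricted to it. Most of the 3503 were shared, since 1962 of them held over 1000 counts in at least 1 other line and only 358 lay between 4 and 100 counts. Annotated identifiers rarely behaved this way, with 100 of 19433 at the level in PI358617 (0.515%).

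The same rule was applied to each other line in turn. It found 303 loci outside the annotation restricted to JI261, 247 to JI92, 202 to JI1794, 167 to Cameor and 126 to JI64. These were 9.94%, 7.51%, 6.41%, 5.13% and 3.64% of the loci at the level in each line. The lines had 14 to 19 libraries each in the main set, against 20 for PI358617, and the missing stages bear on these counts as well.

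Some loci lay close to each edge of the rule. Ps_DOR2genes.32525 entered with 0.501 CPM in embryo and Ps_DOR2genes.41264 with 0.502 CPM in seed coat, whereas Ps_DOR2genes.16797 stayed out at 0.4998 CPM in embryo and Ps_DOR2genes.4117 at 0.496 CPM in seed coat. At the limit on counts, 32 loci entered with 3 counts in another line and 32 stayed out with 4. The entrants included Ps_DOR2genes.18293, at 11.5 CPM in embryo, and Ps_DOR2genes.52654, at 7.99 CPM in seed coat. Ps_DOR2genes.7800, at 17.5 CPM in seed coat and 10.1 CPM in embryo, and Ps_DOR2genes.50659, at 15.3 CPM in embryo, were left out.

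The loci were short, and most had a low RNA level in CPM, with medians of 0.526 CPM in seed coat and 0.852 CPM in embryo. The ratio of count to FPKM (fragments scaled by feature length and library total) gives the length that was used for each feature, called implied length here. The implied median was 705 bases for the 471 loci, with an interquartile range of 490 to 1086, against medians of 1280 bases for the other loci outside the annotation at the level in PI358617 and 2948 bases for annotated identifiers at the level. Implied lengths under 500 bases were found for 128 of the loci and over 2000 bases for 23. On the length-scaled FPKM scale the median locus had 0.554 FPKM in seed coat and 1.41 FPKM in embryo. Other loci outside the annotation had medians of 0.854 and 0.843 FPKM in those tissues, and annotated identifiers 3.43 and 1.92 FPKM.

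The level of 0.5 CPM was met in both tissues by 141 loci, in seed coat alone by 101 and in embryo alone by 229. Counts were present in all 10 embryo libraries for 383 loci, in all 10 seed coat libraries for 238, and in all 20 libraries for 184. No count was seen in any seed coat library for 11 loci, nor in any embryo library for 3.

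**Figure D1:**
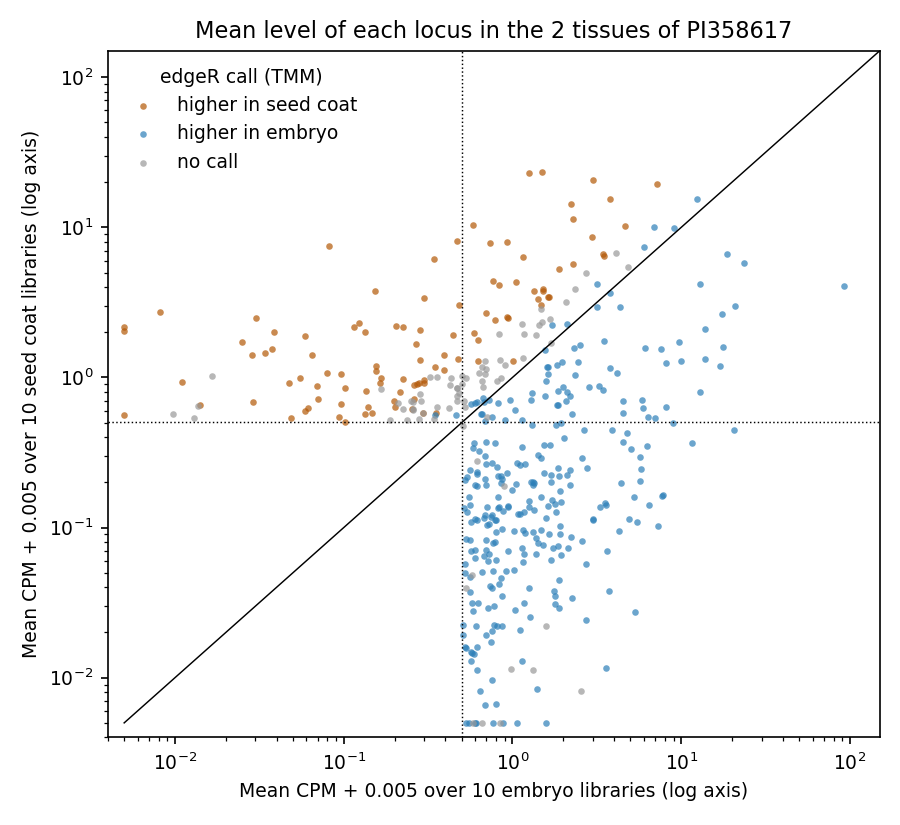
Mean level of each of the 471 loci over the 10 seed coat libraries (vertical log axis, CPM + 0.005) against the 10 embryo libraries (horizontal log axis, CPM + 0.005). Points are loci coloured by the edgeR call at an adjusted p under 0.05, dotted lines mark the level of 0.5 CPM, and the solid line marks equal levels. The 295 loci called higher in embryo form the large group below the line, and the 103 called higher in seed coat lie above it.

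The tissues were compared first in the 141 loci that met the level in both, because a locus that entered through 1 tissue alone was bound to be higher there. Seed coat and embryo of PI358617 were tested over all 5 stages with edgeR's quasi-likelihood test, fitted on 30010 features with scaling by TMM (trimmed mean of M-values). Of the 141, 35 (24.8%) were higher in seed coat, against 37.2% of all features tested and 44.3% of the 16901 features that met the level in both tissues. A further 76 (53.9%) were higher in embryo, against 38.4% and 43.4% in those backgrounds. Other loci outside the annotation that met the level in both tissues had shares of 30.7% and 49.1%. The median log2 fold change, seed coat over embryo, was -0.55 over the 141 loci, -0.46 over those other loci and 0.01 over the 16901 features. In bulk RNA, a lower level in a tissue can mean fewer expressing cells or less RNA per cell, and these cannot be told apart.

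Which tissue held more of these loci depends on how libraries are scaled. The TMM factors were 0.977 to 1.437 in seed coat libraries and 0.564 to 1.275 in embryo libraries. With library totals in place of TMM, 63 of the 141 loci (44.7%) were higher in seed coat, against 63.5% of the features that met the level in both tissues, and 56 (39.7%) were higher in embryo, against 25.2%. The median of the 141 moved to 0.18 and that of the 16901 features to 0.73. Other loci outside the annotation that met the level in both tissues then had shares of 46.0% and 29.6%, with a median of 0.26. Relative to the 16901 features, the 141 loci and these other loci lay toward the embryo under both scalings. The split of each class turned round between the scalings, so neither trait was particular to the 141.

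Over all 471 loci, which passed the low-count filter, the counts carry the rule with them and are given as a description. With TMM, 103 (21.9%) were higher in seed coat and 295 (62.6%) in embryo. Of the 295, 217 met the level in embryo alone, and of the 103, 68 met it in seed coat alone. With library totals 151 of the 471 loci (32.1%) were higher in seed coat, against 49.7% of all features tested, and 273 (58.0%) in embryo, against 26.7% of all features tested. All 103 seed coat calls and 273 of the embryo calls were made by both scalings, whereas 5 loci were called in opposite directions. On the CPM scale, every seed coat library lay below every embryo library for 176 loci (37.4%), against 6.40% of all features tested, and above every one for 50 (10.6%), against 18.0% of all features tested. Divided by the TMM factors, these were 200 loci (42.5%, against 11.7%) and 32 loci (6.79%, against 12.9%).

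A tissue mean over 5 stages was poorly estimated in this fit where a stage of the higher tissue held no count. That was so for 18 loci, of which 17 were not called. A model with tissue and stage terms but no interaction called 13 of the 18. Over all 471 loci it gave 95 (20.2%) higher in seed coat, against 35.9% of all features tested, and 292 (62.0%) higher in embryo, against 37.5% of all features tested.

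**Figure D2:**
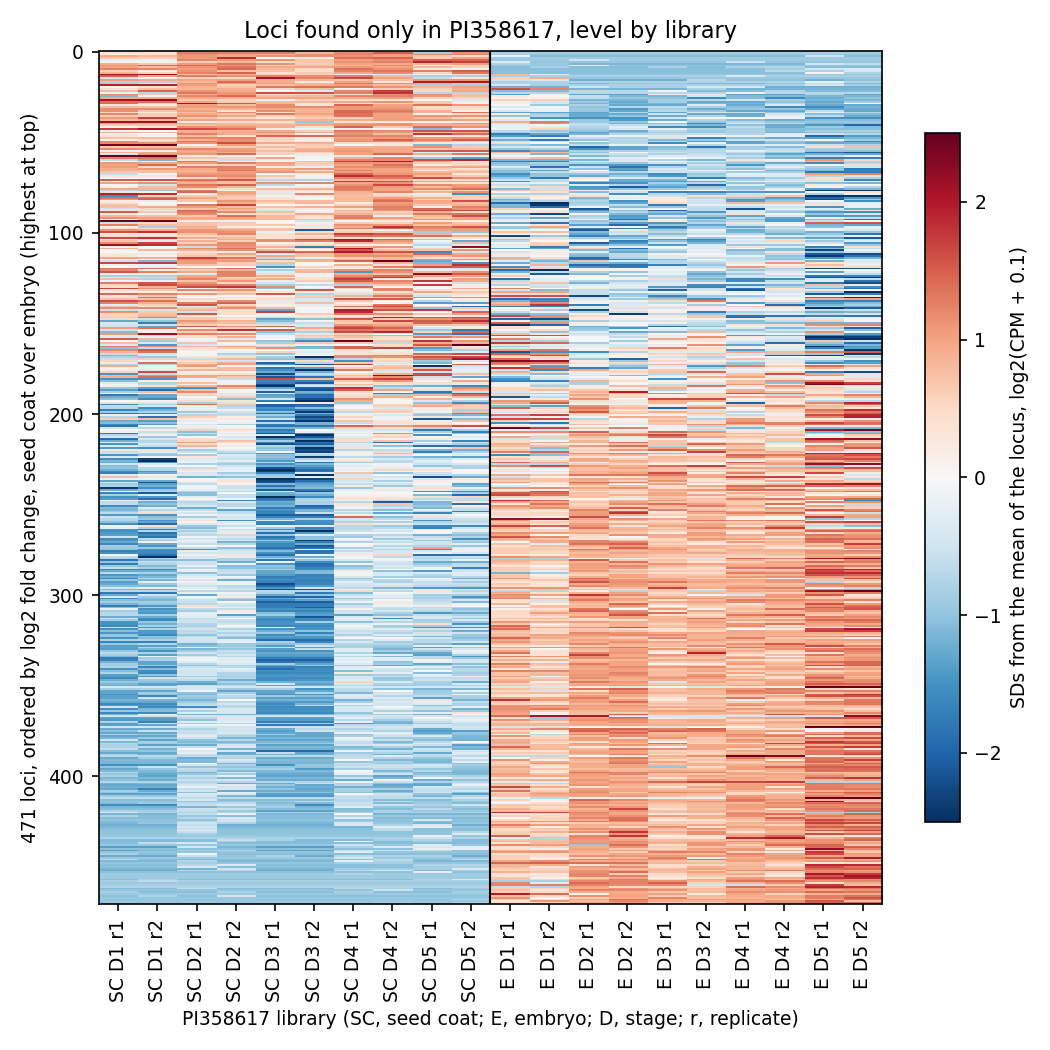
Level of the 471 loci (rows) in the 20 PI358617 libraries (columns), as SDs from the mean of each locus on the log2(CPM + 0.1) scale, red above and blue below the mean. Rows run from the highest log2 fold change of seed coat over embryo at the top to the lowest at the bottom, and the larger lower block is high in embryo and deepest blue in the seed coat at D1 and D3.

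Ps_DOR2genes.50810 had the highest embryo level in CPM and took 9.39% of the summed embryo level of the 471 loci. Its lowest, median and highest levels were 1.99, 4.37 and 6.74 CPM in the 10 seed coat libraries and 43.2, 92.7 and 136 CPM in the 10 embryo libraries. Every embryo library stood far above every seed coat library, and the log2 fold change was -5.29 (SE 0.08, edgeR adjusted p = 1.68e-18). The other loci at the top of the embryo by CPM were Ps_DOR2genes.53002, 57746, 58, 59691, 31117, 46145 and 28219, with log2 fold changes of -2.55 to -6.59. These 8 were picked for their embryo level, so their direction is a description. In all 8, every seed coat library lay below every embryo library.

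Scaled by length, the embryo order was different. Ps_DOR2genes.28219, with an implied length of 531 bases, led at 32.6 FPKM in embryo and 2.21 FPKM in seed coat. Ps_DOR2genes.50810 followed with 29.0 FPKM in embryo and 1.23 FPKM in seed coat, and Ps_DOR2genes.58 came next with 26.1 FPKM in embryo and 0.538 FPKM in seed coat. Ps_DOR2genes.28219 ran from 0.247 to 2.01 CPM in seed coat libraries (median 1.27) and from 8.14 to 25.1 CPM in embryo libraries (median 16.9). Ps_DOR2genes.58 reached at most 1.04 CPM in seed coat libraries and was never below 6.49 CPM in embryo libraries.

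Seed coats had their own high loci, picked likewise for their level. Ps_DOR2genes.57518 ran from 4.25 to 50.0 CPM in seed coat libraries (median 18.7) and from 0.877 to 2.04 CPM in embryo libraries (median 1.49). Its groups did not overlap. The change of seed coat over embryo was 2.89 on the log2 scale (SE 0.11, edgeR adjusted p = 9.08e-14). Ps_DOR2genes.7425 had 10.05, 21.2 and 33.6 CPM as lowest, median and highest in seed coat, against 0.287, 0.735 and 4.35 CPM in embryo (log2 fold change 3.90, edgeR adjusted p = 2.16e-14). On the FPKM scale Ps_DOR2genes.1902 and Ps_DOR2genes.57518 led the seed coat, at 26.1 and 25.7 FPKM. In embryo these 2 had 6.54 and 1.67 FPKM.

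Among the 8 loci of highest CPM in seed coat, 7 were higher in seed coat, by log2 fold changes of 0.74 to 3.90. These 8 were picked for their seed coat level, so their direction is a description. The exception was Ps_DOR2genes.33344, which ran from 8.16 to 24.8 CPM in seed coat libraries (median 17.15) and from 2.06 to 27.3 CPM in embryo libraries (median 10.7). Its tissues overlapped, and its log2 fold change was -0.16 with TMM (edgeR adjusted p = 0.0183) but 0.57 with library totals, so its tissue direction depended on the scaling.

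A few loci were near or at 0 in a tissue. Ps_DOR2genes.59080 had 0.941 to 2.93 CPM in seed coat libraries (median 2.13, 1271 counts in all) and 0 counts in the 10 embryo libraries. Taking 3 counts over the embryo libraries as the limit that a count of 0 allows, it was at least 427-fold higher in seed coat on the CPM scale and 279-fold with TMM. Ps_DOR2genes.26839 also had 0 embryo counts, against 0 to 4.39 CPM in seed coat libraries, and was at least 453-fold higher there on the CPM scale and 291-fold with TMM. Of its 10 seed coat libraries, 1 at D5 held no count while the other D5 library held 2.39 CPM. Ps_DOR2genes.59080 and Ps_DOR2genes.26839 entered through their seed coat level alone and were bound to be higher there. Their limits are therefore a description. Such limits and the intervals below cover counting error only.

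In the other direction, Ps_DOR2genes.21790 had 0 counts in the 10 seed coat libraries and 0.395 to 2.23 CPM in embryo libraries (median 0.941), so it was at least 222-fold lower in seed coat on the CPM scale and 405-fold with TMM. Ps_DOR2genes.17447 had counts in 2 of the 10 seed coat libraries, at 0.0336 CPM or less, and 1.28 to 7.85 CPM in embryo libraries (median 3.21). Both entered through their embryo level alone, so no test of the tissue is given for them.

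The embryo pattern over stages ended high at D5. Summed over the 471 loci, the embryo held 783.1, 978.5, 842.8, 966.4 and 1325 CPM at D1 to D5 (means of 2 libraries), and divided by the TMM factors 614.4, 1337, 1042, 1454 and 2345. D1 was the lowest stage and D5 the highest on both scales. Of 370 loci at the level in embryo, 163 (44.1%) had their highest stage mean at D5, compared with 26.7% of the other loci outside the annotation and 16.2% of annotated identifiers. D1 was the highest stage for 19.7% of the 370 loci, 41.0% of other loci outside the annotation and 63.7% of annotated identifiers. Scaled by TMM, the D5 shares were 61.9%, 40.7% and 29.7% for these 3 classes in the same order.

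Between embryo D5 and D1, 224 of the 471 loci (47.6%) rose in edgeR's test, against 28.9% of all features tested, and 37 (7.86%) fell, against 30.2% of all features tested. The median log2 fold change was 1.57 over the loci, 0.54 over other loci outside the annotation and 0.00 over all features tested. The 2 stages differed in scaling, with TMM factors of 0.566 and 0.564 at D5 and 1.275 and 1.274 at D1. The share of counts in the embryo list also differed, being at least 39.9% in both libraries at D5 and at most 1.14% in both at D1, and its part in the result was not tested. With library totals in place of TMM, 104 of the loci (22.1%) rose, against 14.5% of all features tested, and 79 (16.8%) fell, against 46.2% of all features tested. The median log2 fold change was then 0.40 over the loci and -0.98 over all features. The 104 had all been called as rises with TMM as well. Of the 79, 37 had been called as falls with TMM and 1 as a rise.

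Ps_DOR2genes.26995 was the embryo locus with the largest fitted rise among those of at least 1 CPM. It had 3.98 and 3.78 CPM at embryo D5 and 0 counts in both D1 libraries, at least 169.9-fold higher at D5 on the CPM scale and 383-fold with TMM (edgeR adjusted p = 3.83e-05). From D2 to D4 it stayed at or below 0.33 CPM, and it had 0 counts in all 10 seed coat libraries. Its RNA was thus seen almost entirely in the 2 embryo D5 libraries. Ps_DOR2genes.16369 had a like profile, with 2.88 and 2.63 CPM at D5 and 0 counts at D1.

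Ps_DOR2genes.48118 rose earlier. It had 2.86 and 3.13 CPM at embryo D5 and 0 counts at D1, at least 131-fold higher on the CPM scale and 296-fold with TMM (edgeR adjusted p = 2.37e-07). It was already at 3.28 and 3.39 CPM at D2, and its highest levels were 4.11 and 4.41 CPM at D4. In seed coat it had counts in 1 of 10 libraries. Ps_DOR2genes.34109, with 1.64 and 2.65 CPM at D5 and 0 counts at D1, was the other of the 4 leading rises.

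Falls in the embryo were fewer. Ps_DOR2genes.32884 had 0 counts in both D5 libraries, against 3.83 and 3.16 CPM at D1, and was at least 142-fold lower at D5 on the CPM scale but 62.8-fold with TMM, on which the test was run (edgeR adjusted p = 8.17e-05). Ps_DOR2genes.24643 had 0 counts at D5, against 4.21 and 1.97 CPM at D1. Ps_DOR2genes.45326 had 0 counts at D5, against 1.72 and 1.12 CPM at D1, while its seed coat libraries all held counts, at 0.188 to 0.790 CPM. For these loci no D5 library overlapped a D1 library. Ps_DOR2genes.23292 had 0.0349 and 0 CPM at D5, against 2.61 and 2.54 CPM at D1.

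**Figure D3:**
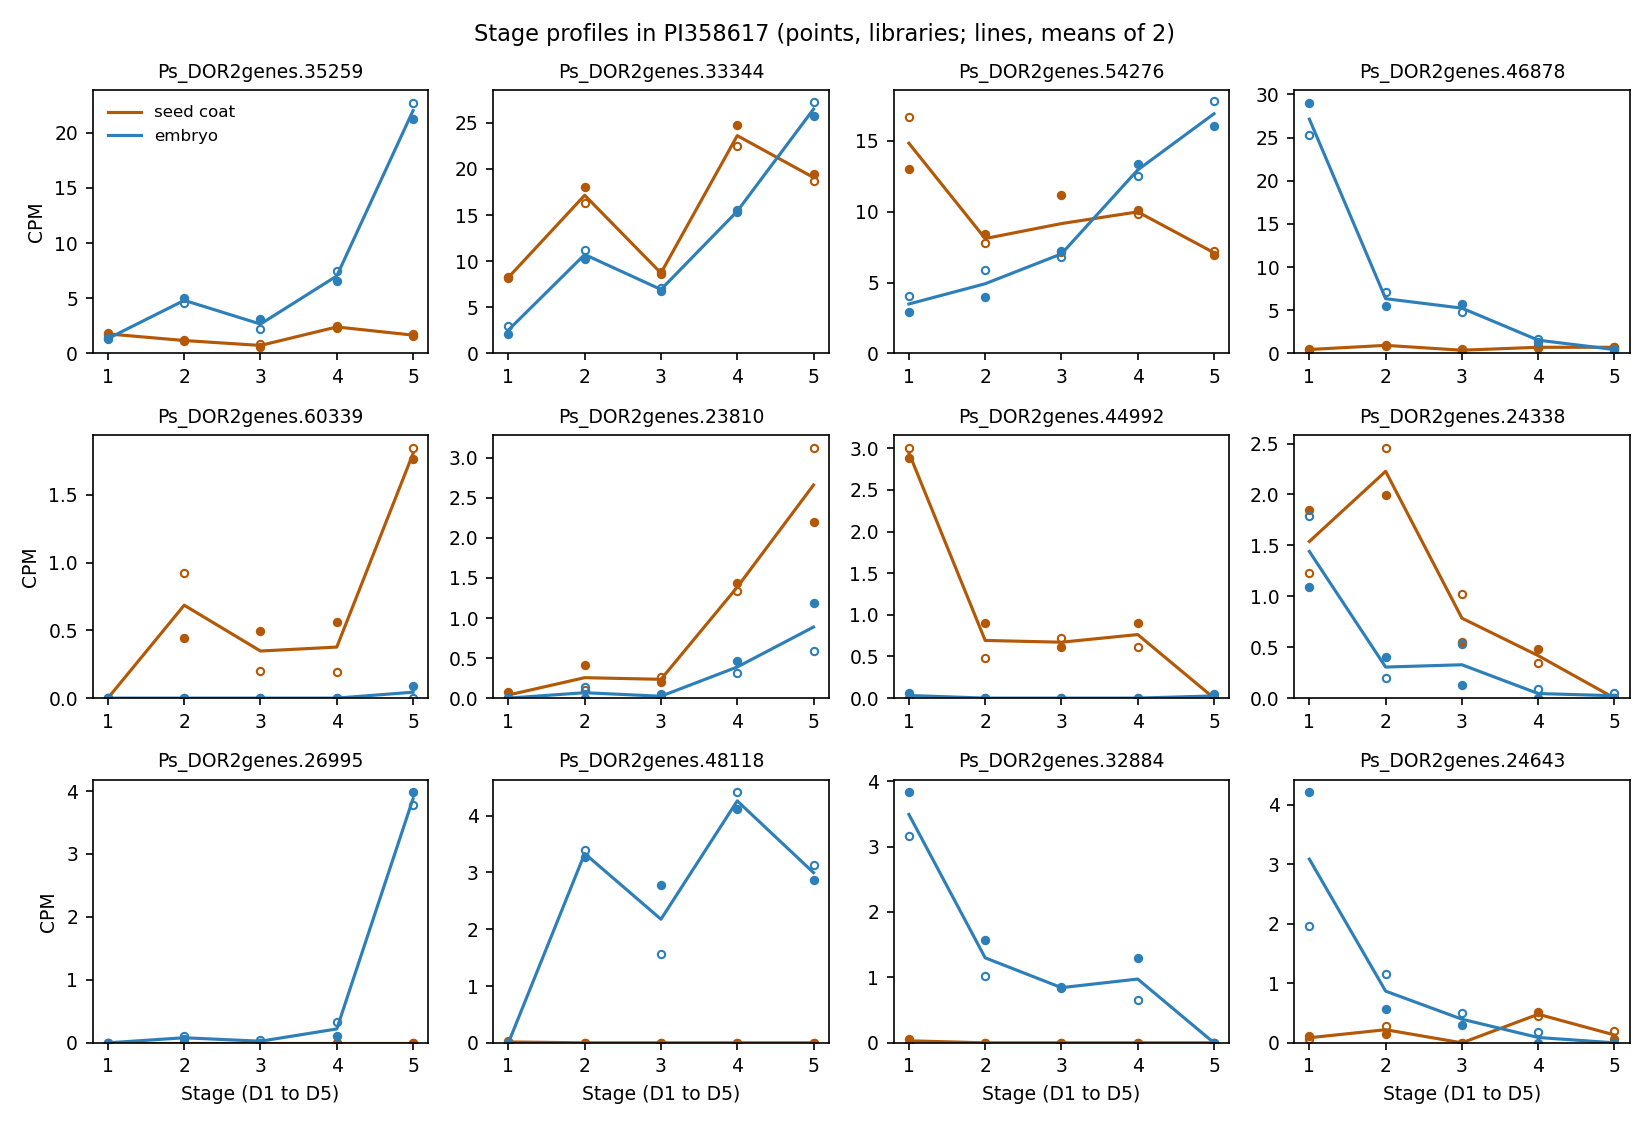
CPM at stages D1 to D5 for 12 loci in seed coat (orange) and embryo (blue); filled and open points are replicates 1 and 2, and lines join their means. The top row shows the 4 loci with the smallest interaction p, the middle row 2 rises and 2 falls in seed coat, and the bottom row 2 rises and 2 falls in embryo, with 48118 high from D2 on and 26995 high at D5.

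The seed coat pattern over stages was uneven. Summed over the 471 loci, the seed coat held 565.4, 667.5, 458.4, 754.5 and 645.3 CPM at D1 to D5, and 183, 240, 159, 246 and 207 loci reached 0.5 CPM at these stages. D3 was the lowest of these stages and D4 the highest. Divided by the TMM factors, which were lower at D3 than at the other seed coat stages, the sums were 416.6, 465.0, 466.8, 567.2 and 465.1, so D4 stayed the highest but D1 became the lowest. Of 242 loci at the level in seed coat, 79 (32.6%) had their highest stage mean at D4, compared with 23.1% of other loci outside the annotation and 12.3% of annotated identifiers. Only 10 (4.13%) had it at D3, against 4.94% and 2.70% in those classes. Scaled by TMM, 75 of the 242 loci peaked at D4, compared with 21.3% and 12.2% in those classes, and 39 (16.1%) at D3, compared with 18.1% and 14.4%.

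The embryo list was also highest at seed coat D4, but it was lowest at D1, whereas the sums in CPM were lowest at D3. It took 0.057% and 0.0602% of counts at seed coat D1, 1.33% and 1.26% at D2, 0.643% and 0.635% at D3, 3.59% and 3.35% at D4, and 2.03% and 2.34% at D5. Among its 100 identifiers, 70 to 82 had counts in a seed coat library. The loci called higher in embryo were also highest at D4 in the seed coat, but lowest at D3. Their summed seed coat levels were 125 and 132 CPM at D1, 216 and 204 at D2, 87.6 and 82.8 at D3, 247 and 221 at D4, and 207 and 206 at D5. The loci called higher in seed coat varied less there, at 356 and 358 CPM at D1, 372 and 371 at D2, 318 and 302 at D3, 417 and 414 at D4, and 356 and 355 at D5. Divided by the TMM factors, the means of the embryo loci were still lowest at D3, at 86.75, and highest at D4, at 176.1, whereas the seed coat loci were lowest at D5, at 256.3, and highest at D3, at 315.3. The part of the embryo list's RNA in these stage sums was not tested.

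**Figure D4:**
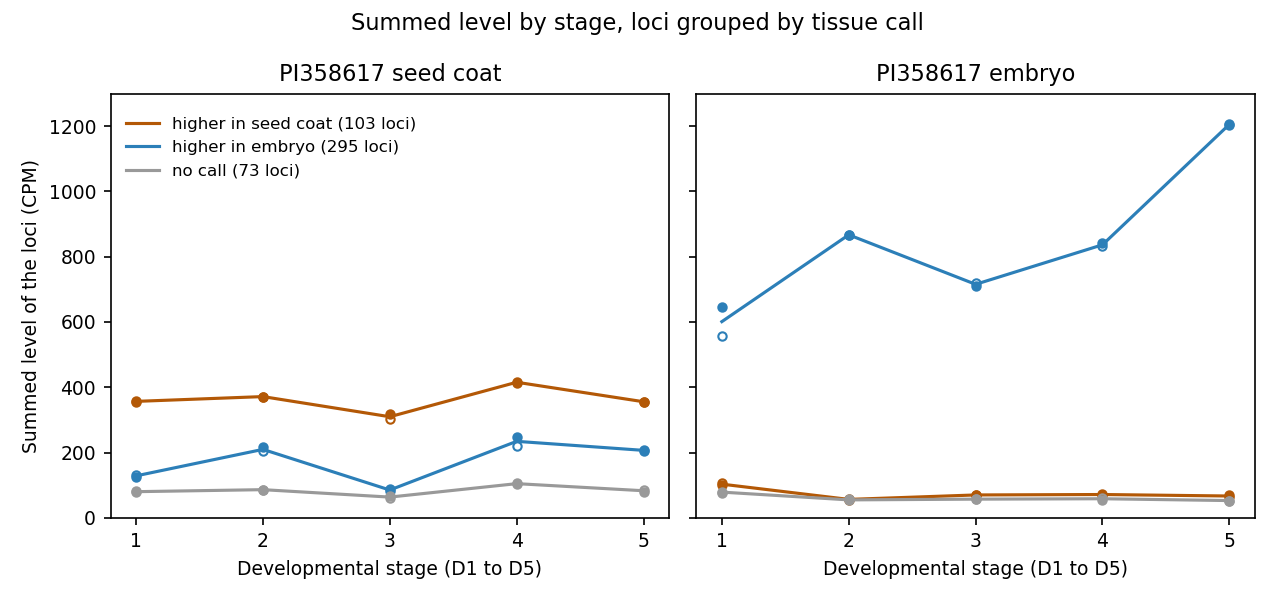
Summed level in CPM at stages D1 to D5 in seed coat (left) and embryo (right) of PI358617 for loci called higher in seed coat, higher in embryo, or not called; filled and open points are replicates 1 and 2, and lines join their means. In seed coat the 103 seed coat loci stay between 302 and 417 CPM while the 295 embryo loci range from 82.8 to 247 CPM; in embryo the 295 loci reach 1207 CPM at D5.

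Between seed coat D5 and D1, 112 of the 471 loci (23.8%) rose in edgeR's test, against 25.3% of all features tested, and 43 (9.13%) fell, against 28.7% of all features tested. The share that rose was thus near that of all features, and the share that fell was lower. Of the 112 that rose, 87 were among the 295 loci called higher in embryo and 13 among the 103 called higher in seed coat. The 103 seed coat loci had 13 rises and 19 falls. The shares of all features in these tissue classes were not computed, so the split is a description. The median log2 fold change was 0.55 over the 471 loci and 0.00 over all features tested. With library totals, 117 of the loci (24.8%) rose, against 26.0% of all features tested, and 44 (9.34%) fell, against 28.2% of all features tested.

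Ps_DOR2genes.60339 had 1.76 and 1.85 CPM at seed coat D5 and 0 counts in both D1 libraries, at least 77.4-fold higher at D5 (edgeR adjusted p = 0.000996). In embryo it had counts in 1 of 10 libraries. Ps_DOR2genes.57588 had 7.99 and 5.95 CPM at seed coat D5, against 0.388 and 0.405 CPM at D1 (log2 fold change 4.09, SE 0.87, edgeR adjusted p = 0.00113). No embryo library held more than 0.158 CPM of it. These were rises of loci whose embryo levels were near 0. Ps_DOR2genes.43272 likewise had 1.69 and 1.61 CPM at D5, against 0.124 and 0.125 CPM at D1, and counts in 1 of 10 embryo libraries. Ps_DOR2genes.23810 differed, since it had 2.20 and 3.13 CPM at seed coat D5, against 0.0776 and 0 CPM at D1, and rose in embryo too.

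The highest seed coat locus, Ps_DOR2genes.57518, also climbed over the stages. Its seed coat levels were 4.25 and 4.92 CPM at D1, 18.3 and 18.3 at D2, 19.1 and 12.3 at D3, 31.9 and 27.3 at D4, and 48.2 and 50.0 at D5. The D5 libraries lay above all others, and the log2 fold change of D5 over D1 was 3.39 (edgeR adjusted p = 1.38e-09).

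Falls in the seed coat were steep in some loci. Ps_DOR2genes.44992 had 0 counts in both D5 libraries, against 2.89 and 3.01 CPM at D1, at least 122-fold lower (edgeR adjusted p = 0.000141). Ps_DOR2genes.34852 had 0 and 0.0672 CPM at D5, against 9.15 and 9.60 CPM at D1 (edgeR adjusted p = 3.12e-06). That locus was already at 0.399 and 1.39 CPM at D2, and the D1 libraries held 1206 of its 1462 seed coat counts (82.5%). Ps_DOR2genes.24338 had 0 counts at D5, against 1.85 and 1.23 CPM at D1, and Ps_DOR2genes.9636 had 0.0309 and 0 CPM at D5, against 0.698 and 1.65 CPM at D1. Ps_DOR2genes.24338 fell in embryo as well (log2 fold change -4.66, edgeR adjusted p = 0.00257).

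The 2 tissues were then compared in their change. The D5-over-D1 change was higher in seed coat than in embryo for 33 loci (7.01%), against 23.2% of all features tested, and lower in seed coat for 84 (17.8%), against 22.2% of all features tested (edgeR). With library totals these counts were 81 of the 471 loci (against 39.3% of all features tested) and 37 of them (against 11.3% of all features tested), and 33 and 37 loci were called the same way by both scalings. Any difference among the 5 stages was called in seed coat for 212 loci (45.0%, against 61.4% of all features tested) and in embryo for 225 (47.8%, against 62.5% of all features tested). With library totals, the same 2 tests called 237 loci in seed coat (50.3%, against 66.0% of all features tested) and 168 in embryo (35.7%, against 63.3% of all features tested). With TMM, both tissues had such a call in 123 loci (26.1%, against 49.7% of all features tested) and neither in 157 (33.3%, against 25.9% of all features tested). A rise at D5 in both tissues was called for 80 of the 471 loci, against 13.4% of all features tested. With TMM, any stage difference was called in 54.0% (seed coat) and 56.3% (embryo) of other loci outside the annotation at the level. A D5-over-D1 change higher or lower in seed coat than in embryo was called in 13.3% and 19.8% of them. Median levels in seed coat and embryo were 0.526 and 0.852 CPM over the 471 loci. Annotated identifiers at the level had 10.6 and 6.01 CPM. The part of count level in these shares was not tested.

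Ps_DOR2genes.35259 had the smallest interaction p. Its levels were 1.59 and 1.71 CPM at seed coat D5, against 1.68 and 1.85 CPM at seed coat D1. In embryo they were 21.3 and 22.7 CPM at D5, against 1.38 and 1.31 CPM at D1. The embryo libraries at D5 stood apart while the seed coat stayed within 0.566 to 2.49 CPM, and the difference of the log2 changes was -5.33 (SE 0.29, edgeR adjusted p = 6.12e-11).

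Ps_DOR2genes.54276 moved in opposite directions. It fell in seed coat, with 6.96 and 7.26 CPM at D5 against 13.0 and 16.7 CPM at D1 (edgeR adjusted p = 0.000232), and rose in embryo, with 16.03 and 17.8 CPM at D5 against 2.92 and 4.05 CPM at D1 (edgeR adjusted p = 3.56e-10). At D1 both seed coat libraries were above both embryo libraries, and at D5 both were below. Ps_DOR2genes.33344 rose in both tissues, with 19.5 and 18.7 CPM at D5 against 8.32 and 8.16 CPM at D1 in seed coat, and 25.7 and 27.3 CPM at D5 against 2.06 and 3.01 CPM at D1 in embryo. The difference of its log2 changes was -3.38 (edgeR adjusted p = 6.69e-11).

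Ps_DOR2genes.46878 had the reverse difference, 5.36 on the log2 scale (SE 0.46, edgeR adjusted p = 2.28e-08). Its embryo levels were 29.0 and 25.3 CPM at D1, 5.54 and 7.13 at D2, 5.70 and 4.78 at D3, 1.35 and 1.71 at D4, and 0.331 and 0.558 at D5. Its seed coat libraries stayed between 0.257 and 1.01 CPM. Both embryo libraries lay above both seed coat libraries at D1 to D4. At D5 both embryo libraries lay below the seed coat's 0.727 and 0.689 CPM, but divided by the TMM factors the order turned, with seed coat at 0.522 and 0.498 and embryo at 0.586 and 0.990.

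Stage-limited RNA was less common among these loci than in the rest of the table, as a description. A stage held over 60% of the summed stage means in seed coat for 6 of 242 loci (2.48%), compared with 9.79% of other loci outside the annotation and 6.43% of annotated identifiers. In embryo it did so for 16 of 370 loci (4.32%), compared with 13.9% and 15.2%. Divided by the TMM factors, the shares were 2.48%, 9.24% and 6.06% in seed coat and 5.14%, 10.2% and 8.77% in embryo, for the 3 classes in that order.

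Some of the loci carried consecutive identifier numbers. There were 18 such runs with 37 loci, and the longest, Ps_DOR2genes.2017 to 2019, held 3. What the numbers stand for is not stated by the labels or files. Over the 20 PI358617 libraries, which all pairs share, the median Pearson correlation of log2(CPM + 0.1) was 0.836 for the 19 consecutive pairs and 0.188 for all 110685 pairs.

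The 3 loci of the longest run all had higher levels in embryo. Ps_DOR2genes.2018 had 0 to 1.08 CPM in seed coat libraries (median 0.547) and 3.00 to 10.4 CPM in embryo libraries (median 7.53), a log2 fold change of -5.13 (edgeR adjusted p = 1.61e-14). Ps_DOR2genes.2017 and 2019, at mean seed coat levels of 0.119 and 0.0975 CPM, entered through their embryo level alone and were bound to be higher there. Their log2 fold changes of -4.65 and -6.02 are a description, and no seed coat library reached any embryo library in either.

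A neighbouring pair named after its values were seen, Ps_DOR2genes.52733 and 52734, ran in opposite directions (r = -0.943, the lowest of the 19). Ps_DOR2genes.52733 had 0 to 0.261 CPM in seed coat libraries (median 0.110) and 3.17 to 10.04 CPM in embryo libraries (median 3.95). With a mean of 0.108 CPM in seed coat, it entered through its embryo level alone and was bound to be higher there. Ps_DOR2genes.52734 had 2.91 to 6.02 CPM in seed coat libraries (median 4.21) and 0.680 to 1.80 CPM in embryo libraries (median 0.966). On the CPM scale neither overlapped between tissues. Divided by the TMM factors, Ps_DOR2genes.52734 did, with 2.07 and 2.03 at seed coat D2 and 2.71 in an embryo D4 library. It met the level of 0.5 CPM in both tissues.

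The 11 libraries of 2017 gave a reading of JI64 and JI92 that the rule had not used. Of the 471 loci, 409 had no count in any of them and 33 had over 3 counts. The 6 JI92 libraries held 42 counts in all over these loci, and the 5 JI64 libraries 589. Most of these 589 came from the JI64 seed coat library at D1, with 468 counts or 6.26 CPM (exact 95% Poisson interval 5.71 to 6.86), whereas the other 4 JI64 libraries held 121 counts at 0.118 to 0.817 CPM. In the main set, the 2 JI64 seed coat libraries at D1 held 5 and 2 counts.

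That library stood apart for other lines as well. It held 10.4 CPM over the loci restricted to Cameor and 15.1 CPM over those restricted to JI92, against at most 0.222 and 0.856 CPM in the other 4 JI64 libraries of 2017. Over the loci restricted to JI261 and JI1794 it held 1.75 and 1.15 CPM, against at most 0.384 and 0.313 CPM in those 4. Over the loci restricted to JI64 it held 107 CPM, against 179 to 294 CPM in the other 4. Those 4 were at D2 and D4, so stage and library cannot be told apart in these comparisons. Ps_DOR2genes.3824 made up 236 of the 468 counts of the D1 library, at 3.16 CPM. In PI358617 this locus had 5.18 to 13.7 CPM in seed coat libraries (median 11.4) and 0 to 2.32 CPM in embryo libraries (median 0.187), with a log2 fold change of 4.65 (edgeR adjusted p = 2.89e-11). Without the JI64 D1 library, 12 loci still had over 3 counts in JI64. Among the loci described by tissue and stage above, Ps_DOR2genes.60339 had 5 counts in 1 JI92 library of 2017, and Ps_DOR2genes.34852 had 3, 4 and 2 counts in 3 JI64 libraries at D1 and D2. Ps_DOR2genes.57518 and Ps_DOR2genes.52654 had 3 counts each in the JI64 D1 library, and Ps_DOR2genes.54276 had 2 in a JI64 library at D4.

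**Figure D5:**
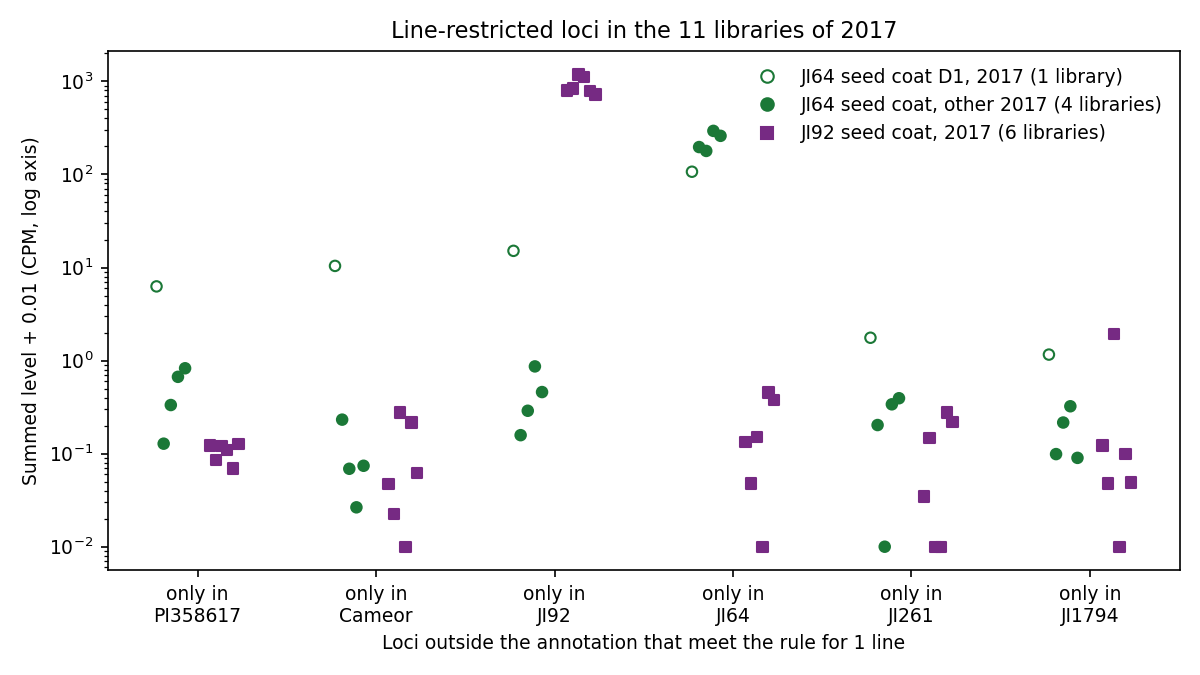
Summed CPM (log axis, + 0.01) in the 11 seed coat libraries of 2017 over the loci outside the annotation restricted to each of the 6 lines. Circles are JI64 libraries, the open circle its D1 library, and squares are JI92 libraries. The JI92 libraries are high (721 to 1190 CPM) over the JI92 loci, and the JI64 libraries (107 to 294 CPM) over the JI64 loci. The open circle lies above the other circles over the loci of every line but JI64.

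The tissue and stage counts did not rest on the loci seen in 2017. Among the 438 loci with at most 3 counts in those libraries, 95 were higher in seed coat and 277 in embryo. The shares so called over all features tested were 37.2% and 38.4%. At seed coat D5 over D1, 101 rose and 38 fell, against 25.3% and 28.7% of all features tested. At embryo D5 over D1, 205 rose and 34 fell, against 28.9% and 30.2% of all features tested. These are edgeR calls with TMM at an adjusted p under 0.05, and the tissue counts carry the rule with them.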

How the data were processed

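Libraries were made from poly(A)-selected RNA of pea seed coat and embryo, reverse transcribed from random hexamers, per the labels' protocols. Tools named in the submitters' processing notes are HISAT2 2.1.0 and StringTie 2.1.0, with no role for either, and per the labels of the series the reads of every library were mapped to the Cameor genome. Not given in the sources used here are how reads were counted, whether strand was kept, how reads matching several places were treated, and how loci beyond the annotation came about. Counts of near-identical or overlapping loci may therefore be shared. The authors deposited whole-number read counts per feature, not normalized, and FPKM values for the same features and libraries. Against a RefSeq table of 65673 genes, of another pea assembly, 0 identifiers matched.

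CPM were computed from the column totals, and the implied length of a feature as count over FPKM and total. The tests used edgeR 4.0.16 in R 4.3.3 on the 20 PI358617 libraries: quasi-likelihood F test, 10 groups of tissue and stage, TMM, default low-count filter, robust fitting, Benjamini-Hochberg adjustment over 30010 features, threshold 0.05. A change was tested as seed coat minus embryo over 5 stages, D5 minus D1 in each tissue, and the difference of these changes. Alternatives were RLE, no filter, a replicate block, D3 and D4 only, DESeq2 1.42.0, limma 3.58.1 on log2(FPKM + 1) or log2(FPKM + 0.1), a log2 fold change of at least 1, and leaving out each of the 20 libraries. Library totals in place of TMM, a model without the interaction, CPM divided by the TMM factors, and the tissue counts over features at the level in both tissues were added after seeing the data. No 2 replicates agreed within sampling noise, the lowest ratio of their spread to it being 5.42. The script was tested on simulated data.

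The loci named are the 8 of highest CPM in each tissue, up to 4 with the largest log2 fold change in each direction of each contrast (at least 1 CPM in the higher group), 4 by the interaction p, 3 by counts in 2017, those at the edges of the rule and those in the longest run. The loci, the rule and the tests were chosen with earlier results of these data known.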

Additional observations from a re-analysis of the deposited data

Results flagged for a closer look

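The JI64 seed coat library labelled D1 and 2017 held 468 counts over the PI358617-restricted loci, a signal in libraries that the choice of loci had not used and above the 4 other JI64 libraries of that year, which held 121 counts together. Its levels over the loci restricted to Cameor and to JI92 were raised as well, at 10.4 and 15.1 CPM. Those over the loci restricted to JI261 and JI1794 were 1.75 and 1.15 CPM, also above the 4 other JI64 libraries. These 4 were at D2 and D4, so stage and library cannot be told apart. With the 2017 libraries counted in the rule, 436 of the 471 loci would remain.

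The change between D5 and D1 differed between seed coat and embryo by edgeR's interaction test in the 4 loci named for the smallest p. The difference of the log2 changes, seed coat minus embryo, was -5.33 for Ps_DOR2genes.35259, -3.38 for Ps_DOR2genes.33344, -4.54 for Ps_DOR2genes.54276 and 5.36 for Ps_DOR2genes.46878. With library totals in place of TMM these were -4.13, -2.17, -3.34 and 6.56.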

How the results depend on the processing

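The number of loci was 774 with a level of 0.2 CPM and 270 with 1 CPM, and 468 to 477 without replicate 1 or without replicate 2. Loci higher in seed coat numbered 161, 162 and 160 with limma on log2(FPKM + 1), log2(FPKM + 0.1) and without its filter, against 103. For embryo D5 over D1, library totals gave 104 rises and 79 falls, and the 3 limma fits gave 95, 92 and 89 falls, against 224 and 37. The D5-over-D1 change was higher in seed coat for 81 loci with library totals and for 92, 94 and 81 with limma, against 33. It was lower in seed coat for 37 with library totals, 146 and 135 with limma on log2(FPKM + 1) with and without filter, and 129 with DESeq2, against 84. The cause was not tested. No share over all features is given here for limma, DESeq2, the left-out libraries or the replicate block. Whether the whole table shifted likewise in those fits was not tested.

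The tissue value of Ps_DOR2genes.33344 changed sign, at 0.57 with library totals and 0.43, 0.52 and 0.43 with limma. Among 1580 values of named loci under alternatives, 1554 kept direction and call, 7 lost the call, 15 gained it and 4 reversed.

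Leaving out each library in turn gave 101 to 105 loci higher in seed coat and 285 to 293 higher in embryo. Seed coat D5 over D1 gave 87 to 119 rises and 33 to 48 falls, and embryo D5 over D1 gave 155 to 233 rises and 26 to 38 falls. The difference of changes gave 23 to 36 and 66 to 90, and any stage difference 184 to 206 in seed coat and 182 to 233 in embryo. Where a group kept 1 library, it was assumed to vary like the others.

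Replicate numbers did not pair the libraries, since the correlation of same-numbered deviations lay between -0.0249 and 0.0238 over 45 pairs of groups. With a replicate block the counts were 104 and 292 for tissue, 102 and 42 for seed coat stages, 214 and 36 for embryo stages, 29 and 76 for the difference, and 196 and 204 for any stage difference.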
